A study of Mus musculus with 6 samples.

Results

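Arginine, itaconate and alternative activation genes were examined in macrophages of the healing mouse infarct. The 8 genes were Arg1, Arg2, Nos2, Ass1 and Odc1, which handle arginine, Acod1, which makes itaconate, and Chil3 and Retnla, a pair of secreted products of alternatively activated macrophages. They were taken by symbol from the deposited table of read counts, where all 8 were found among 54532 listed genes, and all 8 were among the 14522 genes that passed the expression filter and were tested. RNA-seq had been made from 6 libraries: 3 from ITGA5 fl/fl mice, whose Itga5 alleles are flanked by recombination sites, and 3 from Myα5KO mice, which carry the same floxed alleles and a LyzM-Cre driver. All mice were 12-week-old C57BL/6 animals studied 7 days after the left anterior descending artery was tied off permanently, without reperfusion, and the ITGA5 fl/fl animals were littermates of the Myα5KO animals. Cells of digested hearts from individual mice were passed over magnetic columns, first to discard Ly6G+ cells and then to keep CD11b+ cells.

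As a model, LyzM-Cre deletes in every lysozyme M-expressing myeloid cell rather than in macrophages alone, and the driver sits in the lysozyme M gene Lyz2 itself. The ITGA5 fl/fl controls carry no Cre, so an effect of Cre or of the altered Lyz2 gene and an effect of Itga5 loss cannot be told apart here. Itga5 was at 607 ± 43.2 CPM (SD, n = 3) in ITGA5 fl/fl libraries and at 48.7 ± 1.48 CPM (SD, n = 3) in Myα5KO libraries, without overlap, so each library matched its label. CPM are counts scaled to library size with TMM factors. Totals ran from 15424451 to 18419287 counts per library. All 7 macrophage markers were present in every library. Of these, Csf1r, Adgre1, Cd68, Mertk and Itgam were not called, and Fcgr1 rose (log2 fold change 0.27, edgeR adjusted p = 0.0215). Cd14, the most abundant of these markers in every library, fell from a mean of 4755 to 3489 CPM. The sum of the 7 markers, of which Cd14 was the largest part, ran from 9653 to 9870 CPM in ITGA5 fl/fl libraries. In Myα5KO libraries it ran from 7934 to 8824 CPM, without overlap, and most of the markers in it were not called. The part of these marker differences in the results below was not tested, and the neutrophil surface gene Ly6g stayed at or under 0.107 CPM. Because these are bulk samples, fewer cells of a type and less RNA per cell cannot be told apart.

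Macrophages draw on arginine along competing routes. Arginase splits it into ornithine and urea, and ornithine feeds polyamine synthesis through ornithine decarboxylase, whereas inducible nitric oxide synthase turns it into nitric oxide and citrulline, which argininosuccinate synthase can return to the arginine pool. Acod1 diverts cis-aconitate from the citric acid cycle into itaconate, a metabolite with antimicrobial and anti-inflammatory actions, and is strongly induced by microbial products and interferons. In mouse macrophages, Arg1, Chil3 and Retnla are classical targets of IL-4 and IL-13 acting through STAT6, while Nos2 and Acod1 respond to interferon-γ, cytokines and Toll-like receptor ligands.

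Promoter sequences are shown because the genes called lower and those not called include both CpG-rich and TATA-containing start sites. RefSeq promoter windows on GRCm38.p6, running from 250 bases before to 50 bases after the start, were at hand for 5 of the 8 genes (Ass1, Odc1, Acod1, Chil3 and Retnla). Of these, the stretch from 180 bases before to 10 bases after the start is given 5′ to 3′ on the strand of the gene for the called genes Acod1 and Odc1 and for Chil3 and Retnla, with motif matches in capitals.
Acod1, chr14:103046832-103047021, + strand: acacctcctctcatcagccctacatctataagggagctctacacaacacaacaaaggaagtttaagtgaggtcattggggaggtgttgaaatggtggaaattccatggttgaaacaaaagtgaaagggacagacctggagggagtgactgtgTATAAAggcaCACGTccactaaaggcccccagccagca
Odc1, chr12:17544693-17544882, + strand: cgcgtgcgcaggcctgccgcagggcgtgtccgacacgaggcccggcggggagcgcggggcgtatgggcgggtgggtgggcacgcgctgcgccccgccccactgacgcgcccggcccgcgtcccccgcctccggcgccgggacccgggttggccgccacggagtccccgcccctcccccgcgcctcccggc
Chil3, chr3:106167555-106167744, − strand: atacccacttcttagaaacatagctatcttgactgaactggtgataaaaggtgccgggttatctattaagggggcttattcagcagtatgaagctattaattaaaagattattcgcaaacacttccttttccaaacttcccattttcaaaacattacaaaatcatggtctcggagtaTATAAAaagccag
Retnla, chr16:48842429-48842618, + strand: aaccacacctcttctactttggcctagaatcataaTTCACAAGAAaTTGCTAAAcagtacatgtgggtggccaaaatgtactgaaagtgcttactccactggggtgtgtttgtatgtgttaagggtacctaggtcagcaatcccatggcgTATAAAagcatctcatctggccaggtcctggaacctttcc
The capitals in Acod1 mark a TATA box (TATAAA, bases -28 to -23) and the reverse complement of the hypoxia element ACGTG (-18 to -14). In Chil3 they mark a TATAAA that spans the annotated start. In Retnla they mark a STAT6 type match (TTCNNNNGAA, -145 to -136), a C/EBP match (TTGCNNAA, -134 to -127) and a TATA box (-30 to -25). None of the motifs searched was found in the Odc1 window.

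The motifs were searched on both strands of all 32851 windows of the table, where TATAAA occurred in 13.6%, TTCNNNNGAA in 6.95%, TTGCNNAA in 10.8% and ACGTG in 19.6%. The E-box CACGTG, which contains ACGTG, occurred in 7.15% and was present in Ass1. AP-1 (TGANTCA, 7.81%), the antioxidant element (TGACNNNGC, 12.4%) and the kappa-B consensus (4.51%) were in none of the 5 windows. These matches are letters only and carry no evidence of binding. Odc1 and Ass1 had GC-rich windows, with 78.0% and 74.0% GC and 42 and 27 CpG dinucleotides. Acod1, Chil3 and Retnla had 47.0%, 38.7% and 44.7% GC and 2, 3 and 2 CpG dinucleotides, against medians of 52.7% and 7 over the table.

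In Myα5KO macrophages, 4 of the 8 genes fell: Arg1, Acod1, Odc1 and Arg2. The other 4, Nos2, Ass1, Chil3 and Retnla, were not called, and none rose in edgeR, DESeq2 or limma-voom, also at an unadjusted p under 0.05 in edgeR. Genes were called at an adjusted p of 0.05 or less in the quasi-likelihood test of edgeR with Benjamini-Hochberg adjustment over all tested genes. Over all 14522 tested genes, 5.19% were called lower and 3.56% were called higher. The median log2 fold change (Myα5KO over ITGA5 fl/fl) of the 8 genes was -0.40, with 7 of 8 negative, beside a median of 0.01 over all tested genes, of which 6854 were negative. The 7 include Ass1 (-0.01, SE 0.09), Chil3 (-0.06, SE 0.12) and Retnla (-0.32, SE 0.65). These were not called and changed sign in some alternative fits, so the sign count does not show a common fall. The group ranges did not overlap for Arg2, Odc1 and Acod1, all lower in Myα5KO, a pattern that 13.8% of all tested genes shared in that direction.

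**Figure D1:**
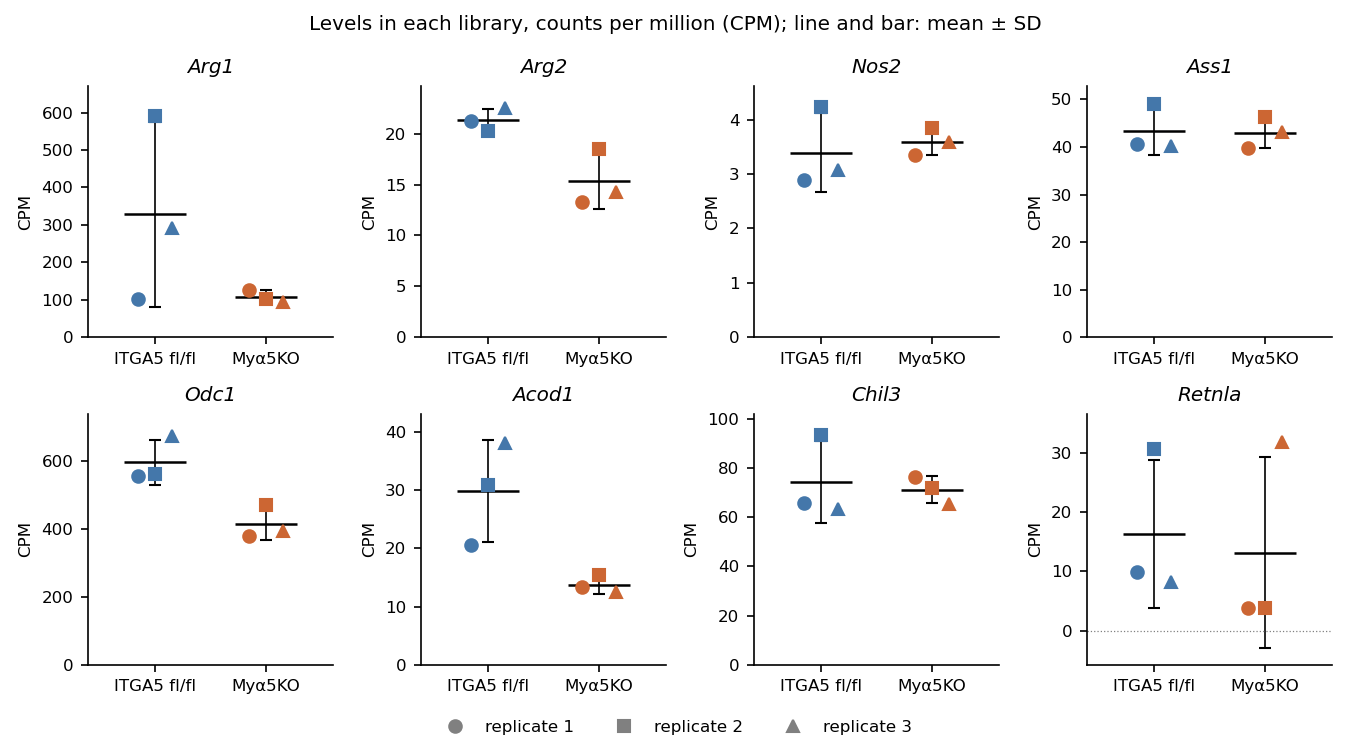
Level of each of the 8 genes in every library, in CPM on linear axes, with ITGA5 fl/fl in blue, Myα5KO in orange, marker shapes for the replicate numbers, a line at the group mean and a bar of 1 SD. Odc1, Arg2 and Acod1 lie lower in all Myα5KO libraries, Arg1 spans 101 to 592 CPM among controls, and Retnla is high in 1 library of each group.

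Arg1 encodes the cytosolic arginase, the enzyme most used to mark alternatively activated mouse macrophages. The gene (ENSMUSG00000019987) lies on the minus strand at chr10:24915221-24927484 and has 8 exons in its longest coding transcript. Its levels were 101, 592 and 291 CPM in ITGA5 fl/fl replicates 1, 2 and 3 and 127, 102 and 95.1 CPM in Myα5KO replicates 1, 2 and 3. Control replicate 1 lay inside the range of the Myα5KO libraries, so the groups overlapped, while control replicates 2 and 3 stood above all others. The group means were 328 ± 248 CPM and 108 ± 16.9 CPM (SD, n = 3 each), and the log2 fold change was -1.60 (SE 0.40, 95% interval -2.47 to -0.73; edgeR adjusted p = 0.0261).

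The Arg1 call rested on single libraries. Without ITGA5 fl/fl replicate 2 the log2 fold change was -0.86 (edgeR adjusted p = 0.116), and without ITGA5 fl/fl replicate 1 it was -2.03 (edgeR adjusted p = 0.000124). The call was also lost without ITGA5 fl/fl replicate 3, Myα5KO replicate 2 or Myα5KO replicate 3 (edgeR adjusted p = 0.0597, 0.0644 and 0.0812), and in DESeq2 (adjusted p = 0.123). Spread between control hearts was unusual for this gene. The highest control level was 5.87 times the lowest, a ratio that 3 of 9614 genes with a mean of at least 100 counts exceeded, whereas the corresponding ratio among Myα5KO libraries was 1.34.

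Some markers of body cavity macrophages, chosen here after their values were seen, shared the order of Arg1 among the controls: Prg4, Alox15, Serpinb2 and F5 were lowest in ITGA5 fl/fl replicate 1 and highest in replicate 2. F10 (29.6, 58.3 and 50.4 CPM), Icam2 (12.2, 22.4 and 20.9 CPM), Selp and Gata6 of the same list also had this order. The remaining listed genes did not. Garnl3 was lowest in control replicate 3, and Cxcl13 (19.6, 14.2 and 18.3 CPM) was lowest in control replicate 2. Wt1, a listed gene that is not taken here as specific to macrophages, was lowest there too (5.63, 4.05 and 4.72 CPM). Among Myα5KO libraries the order of Arg1 was not shared, with Serpinb2 at 11.8, 7.38 and 11.4 CPM. The sum over the 11 genes of this list, Wt1 included, was 170, 394 and 335 CPM in ITGA5 fl/fl replicates 1 to 3 and 152, 117 and 141 CPM in Myα5KO replicates 1 to 3. As with Arg1, control replicate 1 was the lowest of its group and lay near the Myα5KO libraries, and control replicate 2 was the highest. In edgeR, 6 of the 11 were called lower (Prg4, Alox15, Serpinb2, F5, Garnl3 and Selp), beside 5.19% of all tested genes. Because the list was chosen with the values known, this count is a description only. Gata6, the defining transcription factor of these cells, was detected at 3.35, 4.29 and 3.53 CPM in controls and at 3.03, 3.37 and 3.37 CPM in Myα5KO libraries and was not called. The part of such cells in the Arg1 difference was not tested.

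Arg2 encodes the mitochondrial arginase. The gene (ENSMUSG00000021125) lies on the plus strand at chr12:79130777-79156301, with 8 exons. Levels were 21.2, 20.3 and 22.5 CPM in ITGA5 fl/fl libraries and 13.3, 18.5 and 14.3 CPM in Myα5KO libraries. Every Myα5KO library was below every control library. The means were 21.3 ± 1.11 and 15.3 ± 2.79 CPM (n = 3, SD), which gave a log2 fold change of -0.48 (SE 0.12, 95% interval -0.74 to -0.22; edgeR adjusted p = 0.0267). The direction was kept without any 1 library, but the adjusted p lay above 0.05 when any library other than Myα5KO replicate 2 was left out, up to 0.109 without ITGA5 fl/fl replicate 3 in the edgeR test. The last exon overlaps the convergent gene Vti1b, a vesicle fusion protein: 10.6% of the 150-base words of Arg2 transcripts are shared with it or its complement. Vti1b itself ran from 53.7 to 62.9 CPM and did not differ at this threshold (edgeR log2 fold change 0.05, adjusted p = 0.709).

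Arginase transcripts were mainly Arg1 in all 6 libraries. Per gene length, in the deposited FPKM values (fragments scaled to gene length and depth), Arg1 made up 75.3%, 94.9% and 89.2% of the summed Arg1 and Arg2 level in ITGA5 fl/fl libraries and 86.0%, 78.0% and 81.0% in Myα5KO libraries. These shares overlapped between the groups, and the lowest share was that of control replicate 1.

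Odc1, ornithine decarboxylase, catalyzes the first step of polyamine synthesis from ornithine. The gene (ENSMUSG00000011179) lies on the plus strand at chr12:17544794-17551505, with 12 exons. Levels were 556, 562 and 674 CPM in ITGA5 fl/fl libraries and 381, 470 and 396 CPM in Myα5KO libraries. All 3 Myα5KO values were below all 3 control values. The means were 597 ± 66.7 and 416 ± 47.7 CPM (SD, n = 3 each), so that the Myα5KO level was 69.6% of control (log2 fold change -0.52, SE 0.09, 95% interval -0.73 to -0.32; edgeR adjusted p = 0.00476). Leaving out each library in turn gave -0.62 to -0.43, with the call kept each time. Odc1 has processed pseudogenes that share 1.68% of its 150-base words, and the snoRNA gene Gm22748 inside it held 1.0% as many counts as Odc1.

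Nos2, the inducible nitric oxide synthase, had the lowest level of the 8 genes. The gene (ENSMUSG00000020826) lies on the plus strand at chr11:78920787-78960254, with 27 exons. It received 43, 72 and 54 reads in ITGA5 fl/fl libraries and 63, 72 and 68 reads in Myα5KO libraries, or 2.88, 4.23 and 3.07 CPM against 3.35, 3.85 and 3.58 CPM. The groups overlapped. The log2 fold change was 0.08 (SE 0.20; edgeR adjusted p = 0.856), with a 95% interval of -0.35 to 0.50.

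Ass1, argininosuccinate synthase, joins citrulline and aspartate on the way back to arginine. The gene (ENSMUSG00000076441) lies on the plus strand at chr2:31470207-31520672, with 16 exons. Levels were 40.7, 49.0 and 40.3 CPM in ITGA5 fl/fl libraries and 39.7, 46.3 and 43.1 CPM in Myα5KO libraries. The ranges were nearly the same. The log2 fold change was -0.01 (SE 0.09, 95% interval -0.21 to 0.18; edgeR adjusted p = 0.959), and it was 0.07 when libraries were scaled by their totals alone. Ass1 shares 20.1% of its 150-base words with the pseudogene Gm5424, which held 0.371% as many counts.

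Arg1 exceeded Nos2 per gene length in every library. The FPKM ratio of Arg1 to Nos2 was 69.3, 277 and 187 in ITGA5 fl/fl libraries and 75.2, 52.7 and 52.7 in Myα5KO libraries. The ratio of Arg1 to Odc1 was 0.277, 1.61 and 0.659 in controls and 0.511, 0.333 and 0.367 in Myα5KO libraries, so that control replicate 2 was the one library in which Arg1 stood above Odc1.

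Acod1, the itaconate-producing enzyme, fell in every setting tried. The gene (ENSMUSG00000022126) lies on the plus strand at chr14:103046977-103056573, with 5 exons. Levels were 20.6, 30.8 and 38.0 CPM in ITGA5 fl/fl libraries and 13.3, 15.5 and 12.5 CPM in Myα5KO libraries. Every Myα5KO library was below every control library, although controls varied 1.84-fold among themselves. That ratio was also unusual, with 57 of 9614 genes with a mean of at least 100 counts above it, and control replicate 1 was the lowest, as for Arg1. The means were 29.8 ± 8.73 and 13.7 ± 1.56 CPM (SD, n = 3 each), and the Myα5KO level was 45.9% of control (log2 fold change -1.12, SE 0.17, 95% interval -1.50 to -0.75; edgeR adjusted p = 0.00168). The call was kept in all 17 alternatives, of which the fit without a count filter gave an SE of 0.11, with a log2 fold change of -1.33 to -0.91 when each library was left out in turn.

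**Figure D2:**
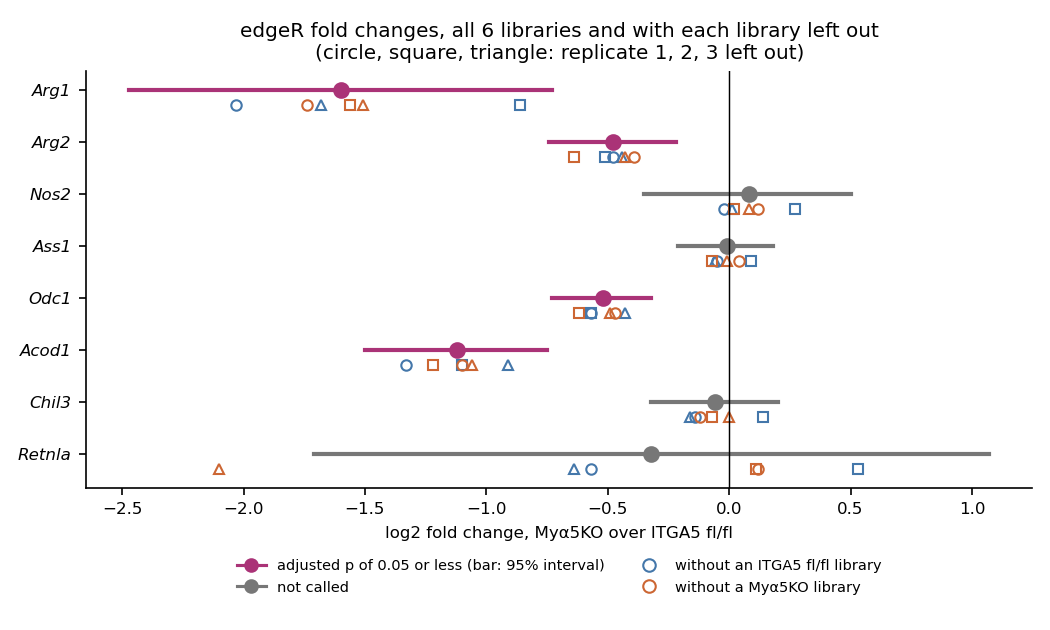
Log2 fold changes, Myα5KO over ITGA5 fl/fl, from edgeR for the 8 genes, with 95% intervals as bars (purple where the adjusted p was 0.05 or less, gray otherwise) and open symbols for the value with 1 library left out. Acod1 and Odc1 stay left of 0 in a narrow range, Arg1 ranges from -2.03 to -0.86, and Retnla from -2.10 to 0.53.

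Chil3 encodes Ym1, a chitinase-like lectin without enzyme activity. The gene (ENSMUSG00000040809) lies on the minus strand at chr3:106147554-106167564, with 11 exons. Levels were 65.7, 93.4 and 63.4 CPM in ITGA5 fl/fl libraries and 76.3, 71.8 and 65.4 CPM in Myα5KO libraries. The Myα5KO values lay inside the control range. The log2 fold change was -0.06 (SE 0.12, 95% interval -0.32 to 0.20; edgeR adjusted p = 0.811), and it was 0.02 when libraries were scaled by their totals alone and 0.14 without ITGA5 fl/fl replicate 2. Chil3 shares none of its 150-base words with other genes, and its close relative Chil4 held no count in any library.

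Retnla encodes RELMα, also called FIZZ1, a small secreted protein of the resistin family. The gene (ENSMUSG00000061100) lies on the plus strand at chr16:48842551-48844461, with 4 exons. Levels were 9.92, 30.6 and 8.25 CPM in ITGA5 fl/fl libraries and 3.73, 3.85 and 31.7 CPM in Myα5KO libraries. One high library stood out in each group, replicate 2 of the controls and replicate 3 of Myα5KO. The log2 fold change was -0.32 (SE 0.65, 95% interval -1.71 to 1.07; edgeR adjusted p = 0.817).

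Retnla values depended on those libraries. Without Myα5KO replicate 3 the log2 fold change was -2.10 (edgeR adjusted p = 0.0222), which would be a call, and without ITGA5 fl/fl replicate 2 it was 0.53 (edgeR adjusted p = 0.735). The highest Myα5KO level was 8.49 times the lowest, a ratio that 0 of 9614 genes with a mean of at least 100 counts exceeded. Among controls the ratio was 3.71, which 10 of these genes exceeded. Granulocyte markers did not share 1 order among the Myα5KO libraries. S100a8 (22.3, 11.9 and 33.4 CPM in replicates 1, 2 and 3) and Ngp (33.0, 15.9 and 51.0 CPM) were highest in replicate 3, as were S100a9, Ltf, Camp and Lcn2, whereas Mpo (20.5, 11.8 and 10.3 CPM), Elane (7.45, 4.87 and 4.31 CPM) and Mmp8 (10.9, 8.67 and 7.94 CPM) were lowest there. In ITGA5 fl/fl replicate 2, where Retnla was also high, S100a8 was at 5.70 CPM, the lowest of the controls. The eosinophil gene Epx stayed at or under 0.158 CPM, a value reached in Myα5KO replicate 3. Summed eosinophil markers ran from 5.23 to 6.81 CPM in controls and from 4.55 to 7.13 CPM in Myα5KO libraries. Ear2, listed among the alternative activation markers, was at 2.48, 2.94 and 1.82 CPM in controls and 2.40, 2.46 and 6.47 CPM in Myα5KO libraries. It was highest in the same library of each group as Retnla. The part of granulocytes and eosinophils in the Retnla values was not tested. The ratio of Retnla to Chil3 in FPKM was 0.411, 0.893 and 0.355 in controls and 0.133, 0.146 and 1.32 in Myα5KO libraries, so that both genes did not move together.

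**Figure D3:**
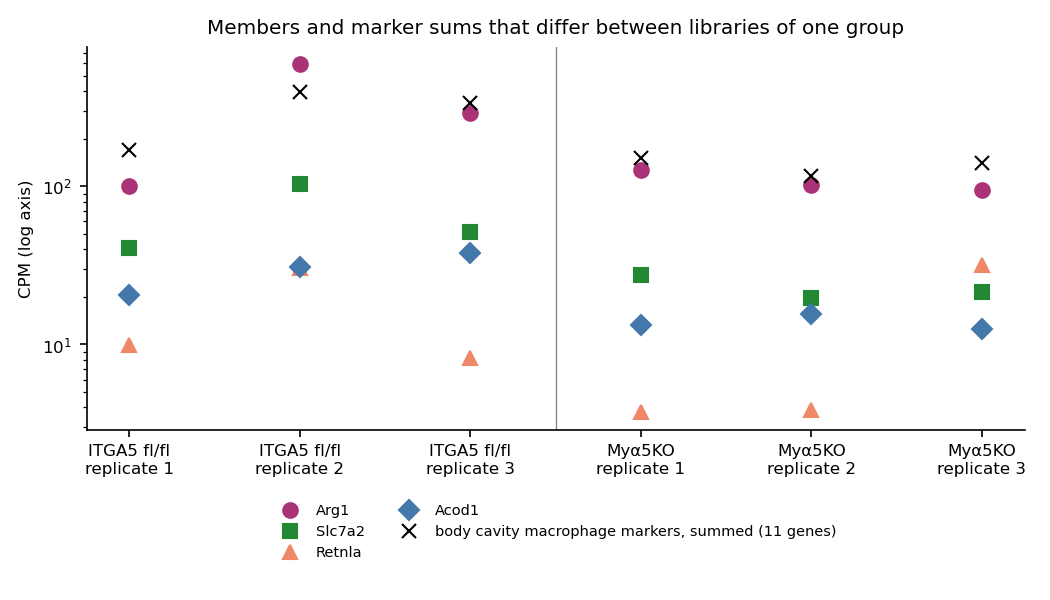
Levels of Arg1, Slc7a2, Retnla and Acod1 and the summed body cavity macrophage markers in each of the 6 libraries, in CPM on a log axis. Arg1, Slc7a2 and the marker sum are highest in ITGA5 fl/fl replicate 2, while Retnla is high in that library and in Myα5KO replicate 3.

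Compared per gene length, the order of mean levels in ITGA5 fl/fl libraries was Odc1 (175 FPKM), Arg1 (146 FPKM), Chil3 (45.2 FPKM), Retnla (27 FPKM), Ass1 (17.9 FPKM), Arg2 (14.9 FPKM), Acod1 (11.3 FPKM) and Nos2 (0.766 FPKM). Ranges of the libraries overlapped between Odc1 and Arg1, between Arg1 and Chil3, between Chil3 and Retnla, between Retnla and Ass1 and between Arg2 and Acod1, so these neighbors were not separated beyond their spread. Ass1 was above Arg2, and Acod1 above Nos2, in all 3 control libraries. In Myα5KO libraries the means were 121 FPKM for Odc1, 48.2 FPKM for Arg1 and 5.19 FPKM for Acod1. There, all Odc1 values exceeded all Arg1 values, and Arg2 was separate from Acod1, with 9.26 to 12.9 against 4.67 to 5.87 FPKM.

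**Figure D4:**
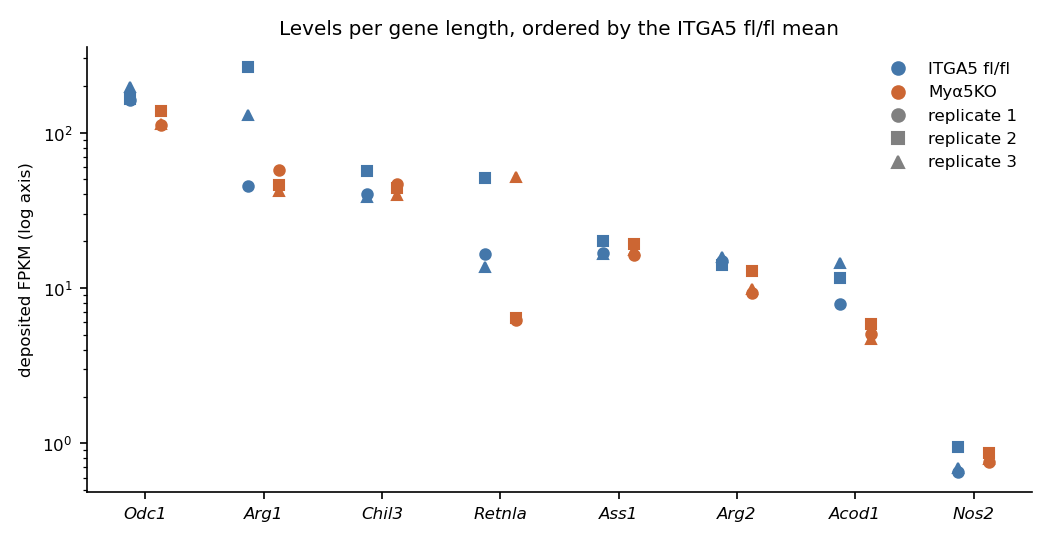
Deposited FPKM of each gene in every library on a log axis, ordered by the ITGA5 fl/fl mean, with ITGA5 fl/fl in blue, Myα5KO in orange and marker shapes for the replicate numbers. Nos2 is under 1 FPKM throughout, and Odc1 is over 100 FPKM throughout.

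Among themselves, the genes fell into sets by their pattern over the libraries, given here as a description only since the 6 points share the group difference. On log2 CPM over the 6 libraries, Pearson's r was 0.962 for Arg2 and Odc1, 0.947 for Odc1 and Acod1, 0.85 for Arg2 and Acod1 and 0.808 for Arg1 and Acod1. Nos2 and Ass1 (0.901) and Nos2 and Chil3 (0.765) also followed each other, and none of these 3 was called. Retnla had no r above 0.422 with another of the 8 genes. Against 9361 named genes with a mean of at least 100 counts, the closest patterns were Agtrap (r = 0.991), Ptgs1 (0.99) and Gpi1 (0.98) for Arg1, Mr1 (0.995), Fam204a (0.992) and Btg1 (0.989) for Arg2, Il1b (0.998), Sdc1 (0.998) and Cdkn1a (0.994) for Odc1, and Oasl1 (0.996), Rhou (0.995) and Arf1 (0.994) for Acod1. They were Cdk8 (0.982), Desi1 (0.975) and Nubpl (0.974) for Nos2, Plekha5 (0.973), Dbf4 (0.97) and Tbkbp1 (0.961) for Ass1, Pprc1 (0.985), Eefsec (0.985) and Hinfp (0.978) for Chil3, and Tmem208 (0.998), Ip6k1 (0.988) and Tsr2 (0.973) for Retnla. Picking the best of 9361 genes over 6 points yields high values by itself. They were 0.961 or more for called and uncalled genes alike.

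Other genes of arginine and polyamine handling were mostly not called. The share that fell was above the 5.19% called lower over all tested genes, but the list was chosen with earlier results of these data known. The number that fell also depended on the setting: 3 or 5 with 1 library left out, 2 at an adjusted p of 0.01 and 1 on log2(FPKM + 1). Of 28 listed, 24 were tested, 5 fell, 0 rose in edgeR (8 fell and 2 rose at an unadjusted p under 0.05) and 19 were not called, and the median log2 fold change was -0.05. The 5 that fell were the cationic amino acid transporters Slc7a1 and Slc7a2, the heavy chain Slc3a2 shared by several amino acid transporters, the spermine oxidase Smox, and Gch1, which starts the synthesis of the nitric oxide synthase cofactor tetrahydrobiopterin. Slc7a2, an arginine importer, had the largest change of these, with 40.5, 104 and 51.8 CPM in ITGA5 fl/fl libraries and 27.5, 19.7 and 21.5 CPM in Myα5KO libraries. Its groups did not overlap, and control replicate 2 was the highest library, as for Arg1. The log2 fold change was -1.52 (SE 0.26; edgeR adjusted p = 0.00353), and without that library it was -1.01 (edgeR adjusted p = 0.00172).

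Slc7a1 was measured at 62.6, 58.7 and 63.2 CPM in controls and 54.1, 48.4 and 40.4 CPM in Myα5KO libraries (log2 fold change -0.37, SE 0.09; edgeR adjusted p = 0.0255). Smox was at 382, 390 and 375 CPM and 292, 326 and 251 CPM (log2 fold change -0.40, SE 0.09; edgeR adjusted p = 0.011). Gch1 was at 134, 136 and 141 CPM and 104, 116 and 106 CPM (log2 fold change -0.34, SE 0.07; edgeR adjusted p = 0.00663). For all 3 genes, every Myα5KO library was below every control library. Slc3a2 fell from 777 ± 28 to 650 ± 33.9 CPM (SD, n = 3 each; log2 fold change -0.26, SE 0.07; edgeR adjusted p = 0.0357). Slc7a1 kept its call with 1 library left out only when that was Myα5KO replicate 1, and Slc3a2 only when it was Myα5KO replicate 3. The most abundant genes that were not called were the polyamine acetyltransferase Sat1 (538 and 603 CPM, adjusted p = 0.37), the antizyme Oaz1, which targets ornithine decarboxylase for degradation (496 and 445 CPM, adjusted p = 0.223), and the antizyme inhibitor Azin1 (206 and 196 CPM, adjusted p = 0.518), as means of ITGA5 fl/fl and Myα5KO in edgeR.

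None of the 19 genes of the citric acid cycle and itaconate handling was called in edgeR, in either direction, and their median log2 fold change was 0.07. Sdha, the succinate dehydrogenase subunit of the complex that itaconate inhibits, was at 167 and 179 CPM (adjusted p = 0.336) and citrate synthase Cs at 130 CPM in both groups (adjusted p = 0.985). No gene of the list had an unadjusted p under 0.05, and DESeq2 and limma-voom also called 0.

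Relatives of Chil3 and Retnla were scarce. Of 8 other chitinase family genes, 2 passed the filter, Ctbs (27.8 and 28.7 CPM, edgeR adjusted p = 0.798) and Chid1 (20.6 and 24.3 CPM, edgeR adjusted p = 0.16), and neither was called. Chil4, Chil6 and Chia1 had no count in any library, which allows at most 3 counts per library. Of 3 other resistin family genes, Retnlg was tested (4.81 and 3.10 CPM, edgeR adjusted p = 0.311), and Retnlb had no count.

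Markers of alternative activation did not move in a common direction. Of 16 genes, all tested, 2 rose, 2 fell and 12 were not called, with a median log2 fold change of 0.11. The lectins Clec10a (log2 fold change 0.37, SE 0.10; edgeR adjusted p = 0.0359) and Cd209a (0.57, SE 0.14; edgeR adjusted p = 0.0259) rose. Transglutaminase Tgm2 fell from 967 ± 21.7 to 638 ± 83.2 CPM (log2 fold change -0.60, SE 0.09; edgeR adjusted p = 0.00141), and the lipoxygenase Alox15, also a marker of body cavity macrophages, fell from 29.6 ± 20.5 to 6.31 ± 2.27 CPM (log2 fold change -2.24, SE 0.45; edgeR adjusted p = 0.00832; n = 3 each). The mannose receptor Mrc1 (953 and 878 CPM, adjusted p = 0.418), the inhibitory Fc receptor Fcgr2b (618 and 566 CPM, adjusted p = 0.32) and the hemoglobin scavenger receptor Cd163 (95.2 and 109 CPM, adjusted p = 0.388) were not called in edgeR. Clec10a and Cd209a are shared with dendritic cells, whose summed markers ran from 201 to 267 CPM in controls and from 264 to 287 CPM in Myα5KO libraries. Cd209a is itself 1 of the 8 genes in that sum and the only one of them called higher. The part of dendritic cells was not tested.

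In IL-4 and IL-13 signaling, 15 of 16 genes were tested, 2 rose, 1 fell and 12 were not called (median log2 fold change -0.10). The kinase Tyk2 (0.23, adjusted p = 0.0393) and the transcription factor Klf4 (0.39, adjusted p = 0.0333) rose, and the nuclear receptor Ppard fell (-0.54, adjusted p = 0.00578), as log2 fold changes in edgeR. The receptor chain Il4ra was at 561 and 452 CPM and did not pass (log2 fold change -0.31, edgeR adjusted p = 0.0507). The histone demethylase Kdm6b (972 and 846 CPM, adjusted p = 0.0958) and the transcription factor Cebpb (948 and 870 CPM, adjusted p = 0.43) were not called in edgeR.

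Among 17 receptors, cytokines and transcription factors that induce Nos2 and Acod1, 16 were tested. Of those, 4 fell, 1 rose and 11 were not called (median log2 fold change -0.12). The NF-κB subunit Nfkb1 fell from 687 ± 26.5 to 427 ± 49.4 CPM (log2 fold change -0.69, SE 0.08; edgeR adjusted p = 0.000359) and the lipopolysaccharide co-receptor Cd14 from 4755 ± 160 to 3489 ± 239 CPM (log2 fold change -0.45, SE 0.08; edgeR adjusted p = 0.00413; n = 3 each). The cytokine Il1b (log2 fold change -0.29, edgeR adjusted p = 0.0359) and the receptor Tlr2 (log2 fold change -0.30, edgeR adjusted p = 0.0256) also fell. Rel (825 and 736 CPM, adjusted p = 0.195), Tnf (262 and 220 CPM, adjusted p = 0.123) and the interferon-γ receptor chain Ifngr1 (251 and 262 CPM, adjusted p = 0.622) were not called in edgeR. Interferon-γ itself, Ifng, was too low to be tested.

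**Figure D5:**
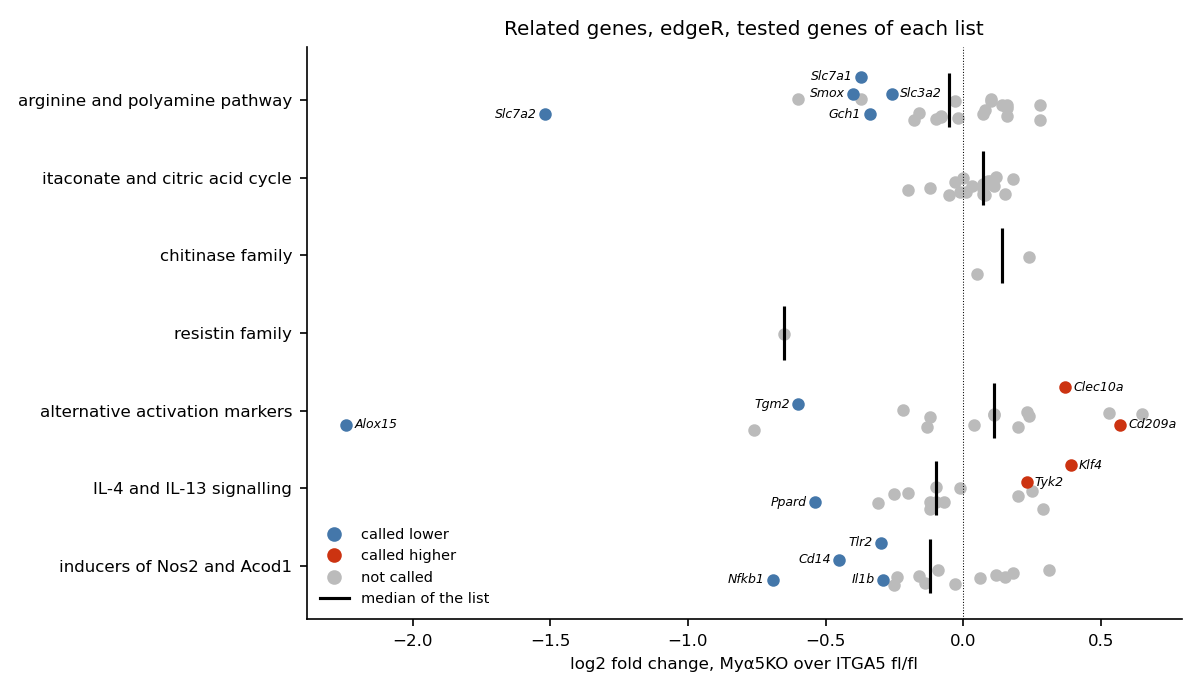
Log2 fold changes of the tested genes in the 7 related lists, 1 point per gene reported, blue where called lower, red where called higher and gray where not called, with a black bar at the median of each list. The medians lie near 0, except in the resistin list with its single gene, and the called genes are named.

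Over all tested genes, 5.19% were called lower and 3.56% were called higher. Over the 107 genes of these lists, counted once each, 93 were tested, 12 fell, 5 rose and 76 were not called. Of the 17 called, Nfkb1, Cd14, Tgm2 and Gch1 were called in all 17 alternatives. Slc7a1, Slc3a2, Clec10a, Cd209a, Klf4, Tyk2, Il1b and Tlr2 lost their call without at least 1 of the libraries, and none of the 17 changed direction. Markers of cell types other than macrophages also differed between the groups, and their part in the results above was not tested. Summed monocyte markers ran from 206 to 261 CPM in ITGA5 fl/fl libraries and from 343 to 357 CPM in Myα5KO libraries, with 3 of 4 genes higher. The summed granulocyte markers ran from 236 to 299 and from 357 to 468 CPM, with 8 of 12 tested genes higher, none lower, and Ly6g near 0. Fibroblast markers ran from 1618 to 1897 and from 1209 to 1578 CPM, with 1 of 7 genes lower. B cell markers ran from 60.4 to 95.2 and from 94.5 to 148 CPM, with 2 of 4 genes higher. Endothelial markers ran from 203 to 227 and from 226 to 250 CPM, T and NK cell markers from 4.16 to 5.41 and from 6.69 to 8.15 CPM, cardiomyocyte markers from 19.2 to 21.7 and from 12.5 to 17.6 CPM, and adipocyte markers stayed under 1 CPM in sum.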

How the data were processed

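RNA-seq libraries of Ly6G- CD11b+ infarct cells (3 ITGA5 fl/fl, 3 Myα5KO) were grouped by their titles. Before deposit, the authors discarded reads with adapters, undetermined bases or low quality, mapped the remainder to GRCm38.p6 with TopHat2 2.0.9 and assigned it to genes with HTSeq 0.6.1. The deposited counts are whole reads per gene without normalization. The authors also deposited FPKM values, made from the counts and 1 length per gene. How strand and multi-mapped reads were handled is not given in the sources used here.

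Counts were tested with edgeR 4.0.16 in R 4.3.3 (quasi-likelihood test, TMM scaling, minimum count 10 and minimum total count 15), on all genes, two-sided, with Benjamini-Hochberg adjustment and a threshold of 0.05. CPM use the TMM factors, and SE and 95% intervals come from the same fit. The model held no covariate. DESeq2 (version 1.42.0), the tool of the study's own methods, was run as an alternative, beside limma 3.58.1 with voom and on log2(FPKM + 1) and log2(FPKM + 0.1) for genes of at least 1 FPKM in at least 3 libraries, 3 other scalings, other count filters, a replicate block, an adjusted p of 0.01 and each library left out. The scripts were tested on simulated data.

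The 8 genes, the related lists and the marker lists were chosen with earlier results of these data known. Of the related lists, all called genes and up to 3 of the most abundant genes not called are named, and the 3 genes with the most similar pattern (Pearson's r) are named for each of the 8. Single marker genes and overlapping or look-alike genes named beside them were chosen after their values were seen. Gene positions are those of the file and of GENCODE M21. Each library counted as a sample of its own, since the paper describes cells taken from hearts of individual mice. Libraries of a group differed by more than sampling noise (chi-square per degree of freedom 5.61 to 14.8), which by itself does not show that they came from separate mice. No molecular identifiers were used, so limits given for a count of 0 cover counting error only. A few genes and motifs are not reported here. In vitro libraries of the study were not analysed here.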

Additional observations from a re-analysis of the deposited data

How the results depend on the processing

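Of the 8 genes, 4 were called lower in edgeR, and 3 in DESeq2, in limma-voom and with the replicate block, in each case without Arg1. The number was 2 on log2(FPKM + 1), 1 on log2(FPKM + 0.1), 2 at an adjusted p of 0.01, and 2 to 3 when each library was left out. It stayed at 4 under the other scalings and with at least 10 counts in every library, and was also 4 without a count filter, where the SE of Arg1 was 0.08 against 0.40 and calls carry little weight, and 0 were called higher in every setting. Acod1 was called in all 17 alternatives, and Odc1 in all but log2(FPKM + 0.1) (adjusted p = 0.0502). Arg1 lost its call in 10 alternatives and Arg2 in 8, both without a change of sign. Both lost it without ITGA5 fl/fl replicate 2, ITGA5 fl/fl replicate 3 or Myα5KO replicate 3. In the last of these fits Retnla was called lower, beside Acod1 and Odc1. Ass1 and Chil3 changed sign with library totals, to log2 fold changes of 0.07 and 0.02. With each library left out, Nos2 ran from -0.02 (below 0 without ITGA5 fl/fl replicate 1) to 0.27, Ass1 from -0.07 to 0.09 (above 0 without ITGA5 fl/fl replicate 2, and at 0.04 without Myα5KO replicate 1), Chil3 from -0.16 to 0.14 (above 0 without ITGA5 fl/fl replicate 2), and Retnla from -2.10 to 0.53 (at 0.53, 0.12 and 0.11 without ITGA5 fl/fl replicate 2, Myα5KO replicate 1 and Myα5KO replicate 2). The causes were not tested.

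Of the related genes, 17 were called, against 4 on log2(FPKM + 1) and on log2(FPKM + 0.1), 29 without a count filter, 8 at an adjusted p of 0.01 and 10 to 15 when each library was left out. Over all genes, 517 were called higher and 754 lower, against 1212 and 518 with library totals, which moved the median log2 fold change from 0.015 to 0.095, 798 and 940 without a filter, 150 and 322 on log2(FPKM + 1), 142 and 306 on log2(FPKM + 0.1), and 128 and 342 at an adjusted p of 0.01. Leaving out 1 library gave 187 to 420 higher and 429 to 671 lower. Same-numbered libraries did not deviate together (r = 0.0509, -0.0576 and 0.0434), and r ran from -0.101 to 0.0634 between libraries of unlike number. No pairing by number was seen, but with 3 libraries per group these values cannot exclude one. With the replicate block, 16 related genes were called and the log2 fold change of Arg1 was -1.31 (adjusted p = 0.0729). Nos2 was under the FPKM minimum and could not be tested on that scale, and its few reads limit the precision of its fold change.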
